A study of Mus musculus with 8 samples.

Results

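The early response of AtT-20 cells to tamoxifen was taken as the difference between 2 libraries collected after 24 h of treatment and 2 libraries collected at 0 h. AtT-20 is a mouse pituitary line of corticotropes, the cells that make Pomc, the precursor of adrenocorticotropic hormone. The cells of both groups carried ectopic ER-Pax7, a Pax7 fusion that tamoxifen activates, and were grown in medium with serum. The labels do not say whether the line is 1 clone, and cells given vehicle for the same time were not used here, so the effects of ER-Pax7 activation, of tamoxifen and of hours in culture cannot be told apart. Of 55401 genes, 9597 averaged a signal of 1 or more across the 4 libraries and were tested. A further 8226 genes, whose mean was from 0.1 to under 1, are described apart as weakly expressed. Signal is the mean read coverage per exonic base, so levels are already per length.

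Pax7 is a paired-domain and homeodomain transcription factor that marks the melanotropes of the intermediate pituitary, which cut Pomc further than corticotropes do, with the convertase Pcsk2. Corticotropes store Pomc peptides in dense-core granules packed with granins and release them under control of hypothalamic hormones, glucocorticoids and somatostatin. Granule membranes draw on sterol and fatty acid synthesis, which SREBP transcription factors drive through sterol regulatory elements.

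The line carried the transcripts of its type in both groups. Pomc was at 634 and 623 at 0 h and at 499 and 552 at 24 h, and the corticotrope factors Tbx19 and Neurod1 were at 18.7 and 17.7 and at 4.28 and 4.27 at 0 h. The receptor genes Crhr1 and Avpr1b, markers of corticotropes in the gland, were nearly absent, at a mean of 0.110 and at 0 at 0 h. Of the melanotrope markers, Drd2 was at 0 in both groups. The Pax7 gene, whose value may hold reads of the introduced construct, was at 12.9 and 13.3 at 0 h and at 14.1 and 12.6 at 24 h. Esr1, which may do the same, was at 16.0 and 16.5 and then at 15.4 and 16.3. Markers of other cell types were low: the summed signal of 14 fibroblast, 14 immune, 10 endothelial, 14 other pituitary and 18 myogenic genes ran from 0.290 to 1.71 per library over the 5 lists, and none of their members passed the filter.

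Summed signal was 164236 to 178548 per library. Across genes, which are not independent replicates, the 0 h libraries correlated at r = 0.994 and the 24 h libraries at 0.984, and each 24 h library was nearer to libraries of other times than to its partner. Replicate 1 was at 0.987 to 72 h replicate 1 and at 0.986 to 0 h replicate 1, and replicate 2 was at 0.995 to 48 h replicate 2. The 24 h pair was less close than the 0 h pair, while the 48 h pair correlated at 0.985 and the 72 h pair at 0.979. For some of the results that rest on 1 of the 24 h libraries, but not for all, values without it are given below. Separate cultures are not named in the labels for the replicates. The p-values therefore cover only the spread among these libraries, and that spread may be technical.

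Few genes passed the test at 24 h. The test called 23 of 9597 genes (0.24%), 10 higher (0.104%) and 13 lower (0.135%), by limma with a Benjamini-Hochberg adjusted p under 0.05, and 1273 had an unadjusted p under 0.05. The test uses log2(signal + 1), and differences on that scale, written below as log2, understate the change of low genes. The median difference over all tested genes was 0.01, with 55.5% of them higher and 44.5% lower at 24 h, and 24.3% higher and 17.9% lower without overlap between the groups. Counts of list members given below are to be read beside these shares. Of the 23 called genes, 17 had a mean under 5 and 21 are protein coding by GENCODE M21. The exceptions are the antisense gene Gm37459 and Mia3, whose identifier in the files has no match there. Genes just inside the filter were Ctbs, 4933412E12Rik and Mir6971, with means of 1.0004 to 1.0009, and just outside it were Dnaja4, Platr25 and Gm5093, at 0.998.

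The number of calls depended on single libraries. It was 2 without either 0 h library, 12 without 24 h replicate 1 and 113 without 24 h replicate 2. Leaving out either 48 h library, which bears only on the estimate of spread, gave 12, and leaving out either 72 h library gave 9. With the 4 libraries of 0 h and 24 h alone, which leave 2 residual degrees of freedom, limma called 1 gene, and 862 had an unadjusted p under 0.05. Mest and Copg2 were called in all 8 fits with a library left out, and none of the other 21 genes was. With either 0 h library left out, Mest and Copg2 were the 2 genes called. The sign of each of the 23 differences was the same in every other setting that tested the gene (17, or 16 for Akr1c14 and Creb3l1, which a filter over all 8 libraries removed). Settings that change only the spread or the genes tested leave the difference itself unchanged. Leaving 1 library out of groups that do not overlap cannot turn the sign either, so this is no measure of stability. With the 4 libraries alone, the limma adjusted p ran from 0.0467 for Mest and 0.0590 for Copg2 to 0.288 for Mia3.

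**Figure D1:**
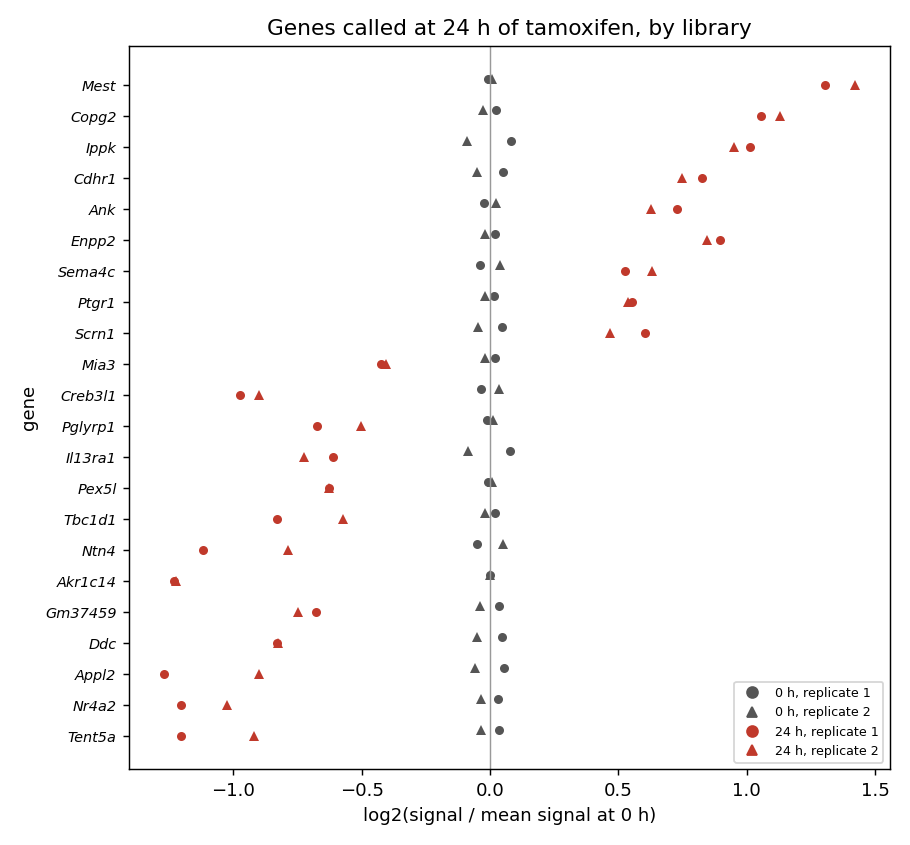
Signal of 22 of the 23 called genes in each library, as log2 of the ratio to the 0 h mean (horizontal axis, gene names on the vertical axis). Grey points are the 0 h libraries and red points the 24 h libraries, circles for replicate 1 and triangles for replicate 2. For every gene drawn, both 24 h points lie on 1 side of both 0 h points, which the choice by call makes likely.

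Among the genes that rose, the neighbours Mest and Copg2 changed most. Mest (ENSMUSG00000051855.15, chromosome 6, 30723547 to 30748465, GRCm38) is an imprinted gene for a membrane protein with an alpha/beta hydrolase fold. Its signal was 2.979 and 3.005 at 0 h and 7.39 and 8.02 at 24 h, a rise of 2.57-fold (log2 1.12, SE 0.05, limma adjusted p = 0.00100, n = 2 per group). Copg2 (ENSMUSG00000025607.15, chromosome 6, 30747554 to 30896794), a coat subunit of the COPI vesicles that return proteins from the Golgi to the endoplasmic reticulum, was at 2.82 and 2.72 and then at 5.76 and 6.06 (log2 0.87, SE 0.05, limma adjusted p = 0.00112). The values of neither gene overlapped between the groups, which the choice by call makes likely here and for the called genes below. These genes converge on opposite strands, and exons of a neighbour cover 23.1% of the exonic bases of Mest and 17.8% of those of Copg2. If counting did not use the strand, which is not known, reads over the shared part count for both.

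Enzymes and transporters made up several of the other rises. Ippk, the kinase that makes inositol hexakisphosphate, was at 2.57 and 2.28 at 0 h and at 4.89 and 4.69 at 24 h (ratio 1.98, log2 0.76, limma adjusted p = 0.00599). Ank, which exports pyrophosphate precursors from the cell, went from 3.74 and 3.86 to 6.30 and 5.87 (ratio 1.60, log2 0.56, limma adjusted p = 0.0164). At 72 h the mean of Ippk was 4.43 and that of Ank 6.72, against 4.79 and 6.08 at 24 h. Ptgr1, a prostaglandin reductase, rose from 2.95 and 2.88 to 4.27 and 4.22 (log2 0.42, limma adjusted p = 0.0175). Enpp2, the secreted enzyme autotaxin that makes lysophosphatidic acid, rose from 0.887 and 0.864 to 1.63 and 1.57 (ratio 1.83, log2 0.47, limma adjusted p = 0.0164). Of the 17 other settings, Ippk was called in 13, Ank and Enpp2 in 10 each and Ptgr1 in 8.

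Cdhr1, a cadherin of photoreceptor outer segments, rose from 2.42 and 2.25 to 4.14 and 3.92 (ratio 1.72, log2 0.59, limma adjusted p = 0.00772). The semaphorin gene Sema4c rose from 2.35 and 2.49 to 3.49 and 3.75 (log2 0.43, limma adjusted p = 0.0228). Scrn1, a cytosolic protein linked to exocytosis, rose from 3.14 and 2.94 to 4.62 and 4.21 (log2 0.42, limma adjusted p = 0.0439). The replicates of these 3 genes lay closer to each other than to the other group. Scrn1 was called in 6 of 17 other settings, Sema4c in 8 and Cdhr1 in 13. With a library left out, the log2 difference ran from 0.37 to 0.48 for Scrn1, 0.39 to 0.47 for Sema4c and 0.56 to 0.63 for Cdhr1.

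Promoter sequences were read for the genes called because a paired-domain factor was activated. The windows run from 250 bases before to 50 bases after each annotated start (RefSeq, GRCm38.p6, 32851 windows of 300 bases), and 18 of the 23 called genes have one. On both strands, 5 motifs were searched: the Pax paired-domain core GTCACGC, the paired-class homeodomain dimer site with TAAT and ATTA 2 bases apart, the NGFI-B response element AAAGGTCA bound by Nr4a receptors, the cAMP response element TGACGTCA and the sterol regulatory element TCACCCCAC. The Pax core starts with the last letters of the elements that end in GTCA, so a run can hold both. The shares of all windows that hold them are 2.09%, 0.390%, 1.51%, 1.79% and 0.551%. Among the 18 genes with a window, the Pax core occurred in 2, Cdhr1 and Scrn1, and the NGFI-B element in 1, Ddc. The other motifs occurred in 0. In gene lists described below, none of whose members was called, the Pax core was in 1 of 11 granule cargo genes with a window. It was also in 1 of 6 processing enzymes and 2 of 19 genes of granule membranes and exocytosis. It was in 0 of 23 sterol genes, 0 of 12 nuclear receptors and 0 of 6 weakly expressed called genes. A gene can have more than 1 window and counts if any of them holds the motif. Counts of genes here and below are therefore not in the same unit as the shares of windows. The window of Cdhr1, shown because it rose more of the 2 genes with a Pax core, is at chr14:37098298-37098597 on the minus strand, printed 5′ to 3′ with the motif, which begins at position -61 (in Scrn1 at -34), in capitals. A match of letters is no evidence of binding.
Cdhr1: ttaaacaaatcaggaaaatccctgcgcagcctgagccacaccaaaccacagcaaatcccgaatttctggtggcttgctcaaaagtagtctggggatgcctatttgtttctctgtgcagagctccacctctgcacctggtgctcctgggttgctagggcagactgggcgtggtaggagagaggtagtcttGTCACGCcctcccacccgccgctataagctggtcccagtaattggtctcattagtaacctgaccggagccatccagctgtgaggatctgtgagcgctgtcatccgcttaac

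The genes that fell were led by Tent5a and Nr4a2. Tent5a (ENSMUSG00000032265.14, chromosome 9, 85320439 to 85327348), a poly(A) polymerase that lengthens messenger RNA tails, was at 6.90 and 6.57 at 0 h and at 2.93 and 3.56 at 24 h (log2 -0.87, SE 0.07, limma adjusted p = 0.00715). Nr4a2 (ENSMUSG00000026826.13, chromosome 2, 57106830 to 57124003), the orphan nuclear receptor Nurr1 that binds the Pomc gene, was at 3.98 and 3.80 and then at 1.69 and 1.91 (log2 -0.80, SE 0.06, limma adjusted p = 0.00346). The mean signal of Tent5a changed by -51.9% and that of Nr4a2 by -53.7%, and neither overlapped between the groups. In these bulk libraries, fewer cells with a transcript and less transcript per cell cannot be told apart.

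Ddc and Akr1c14 are enzymes of monoamine and steroid metabolism. Ddc (ENSMUSG00000020182.16, chromosome 11, 11814101 to 11898144), the decarboxylase that makes dopamine and serotonin, was at 13.3 and 12.5 at 0 h and at 7.26 and 7.29 at 24 h (log2 -0.75, SE 0.06, limma adjusted p = 0.00715). It was the most highly expressed gene of the 23 at 0 h. Akr1c14, an aldo-keto reductase that acts on steroids, was at 1.62 in each 0 h library and at 0.689 and 0.693 at 24 h (log2 -0.63, limma adjusted p = 0.00346), the largest relative fall, of -57.2%. Of the 6 tested monoamine genes, Ddc was the 1 called, lower, and the cofactor gene Pcbd1 was at 7.50 and 7.10 and then at 8.59 and 8.88 (limma adjusted p = 0.190).

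The promoter of Ddc is shown because Nr4a2 and Ddc fell together and it was the 1 called gene with an NGFI-B element. It is 1 of 2 windows of the gene, at chr11:11898095-11898394 on the minus strand. The element is on the other strand here, in capitals from position -73, and reads TGACCTTT in this direction.
Ddc: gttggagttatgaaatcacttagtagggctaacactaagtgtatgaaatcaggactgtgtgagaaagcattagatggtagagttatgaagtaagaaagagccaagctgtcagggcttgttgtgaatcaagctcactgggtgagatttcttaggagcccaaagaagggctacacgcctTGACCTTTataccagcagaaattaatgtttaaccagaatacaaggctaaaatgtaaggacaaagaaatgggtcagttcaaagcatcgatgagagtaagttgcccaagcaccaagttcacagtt

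Signal adaptors and receptors were also among the falls. Appl2, an endosomal adaptor of receptor signalling, was at 3.80 and 3.51 at 0 h and at 1.52 and 1.96 at 24 h (log2 -0.77, limma adjusted p = 0.0164). Tbc1d1, which switches off Rab GTPases of vesicle traffic, fell from 5.08 and 4.94 to 2.82 and 3.37 (log2 -0.56, limma adjusted p = 0.0408). Il13ra1 on the X chromosome, a receptor subunit for interleukins, fell from 4.18 and 3.73 to 2.59 and 2.40 (log2 -0.50, limma adjusted p = 0.0244). Of the 17 other settings, Appl2 was called in 9, Il13ra1 in 8 and Tbc1d1 in 6. In Appl2 and Tbc1d1 the lower value was that of 24 h replicate 1, and in both genes even the higher 24 h value lay well below the 0 h values.

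Ntn4, a netrin of basement membranes, fell from 2.33 and 2.49 to 1.11 and 1.40 (log2 -0.60, limma adjusted p = 0.0435). Pglyrp1, a secreted protein that binds bacterial peptidoglycan, fell from 6.12 and 6.21 to 3.86 and 4.35 (log2 -0.49, limma adjusted p = 0.0359). Creb3l1, a transcription factor held in the endoplasmic reticulum membrane until it is cleaved, fell from 1.32 and 1.38 to 0.687 and 0.724 (log2 -0.46, limma adjusted p = 0.0164). Mia3, also called TANGO1, loads bulky cargo into vesicles at endoplasmic reticulum exit sites and fell from 6.73 and 6.55 to 4.95 and 5.02 (log2 -0.35, limma adjusted p = 0.0439). Ntn4, Pglyrp1, Creb3l1 and Mia3 were each called in 1 of the 8 fits with a library left out, that without 24 h replicate 2.

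Several genes of the Pex5l locus on chromosome 3 had lower values at 24 h. Pex5l (ENSMUSG00000027674.16, 32949408 to 33143247), an auxiliary subunit of pacemaker ion channels, was at 7.35 and 7.43 at 0 h and at 4.79 and 4.78 at 24 h (log2 -0.54, SE 0.04, limma adjusted p = 0.00715). The antisense gene Gm37459 (32939314 to 32983301), which overlaps its end, was at 10.6 and 10.0 and then at 6.43 and 6.14 (log2 -0.63, limma adjusted p = 0.0164). The weakly expressed antisense gene 4930419G24Rik inside the locus was at 1.19 and 1.30 and then at 0.603 and 0.708. Of other genes in the span, only those with a mean of at least 0.1 were looked at. These, Gm37443, Gm19445 and Gm23214, had lower means at 24 h as well and were not called. No source used here says whether counting used the strand, so the sense and antisense values cannot be separated.

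Other called genes overlap neighbours too. The values of Cenpp, which overlaps Ippk on the other strand, were 1.49 and 1.31 at 0 h and 1.94 in each library at 24 h, and limma did not call it (adjusted p = 0.213). Otulin, which overlaps the span of Ank, was at 1.58 and 1.61 and then at 1.46 and 1.39, a lower mean where that of Ank was higher, and the microRNA gene Mir7117, on the same strand as Ank, was at 1.17 and 0.821 and then at 1.92 and 1.65 (limma adjusted p = 0.144). Gm15915, opposite Ntn4, was at 1.09 and 1.11 and then at 0.626 and 0.814, and 1700042O10Rik, opposite Ddc, at 0.415 and 0.526 and then at 0.122 and 0.257, lower like their neighbours and not called. D430040D24Rik, opposite Sema4c, was at 0.310 and 0.251 and then at 0.317 and 0.407. Wipf3, which overlaps Scrn1, was at 0.452 and 0.447 and then at 0.884 and 0.802 (limma adjusted p = 0.0522 with the lower floor described below). For Mest, Copg2 and Gm37459, 3 of the 23 called genes, exons of other genes cover over 10% of the exonic bases.

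The later libraries give the course of the same genes. Comparisons at 48 h and 72 h use the same 0 h libraries, so their calls are not independent of those at 24 h and are not counted together here. Over all 9597 genes, limma called 55 at 48 h (0.573%) and 189 at 72 h (1.97%). Of the 10 genes that rose, 6 had their highest mean at 72 h and 4 at 24 h: Ippk, Cdhr1, Ptgr1 and Scrn1. Of the 13 that fell, 6 had their lowest mean at 24 h, 6 at 72 h and 1 at 48 h. Mest went on from 7.70 to 10.6 and Ddc from 7.27 to 4.80 between 24 h and 72 h, whereas Mia3 stood at 4.99, 5.51 and 6.06 at 24, 48 and 72 h, against 6.64 at 0 h.

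Genes of granule cargo had lower means at 24 h without passing the test. Of 26 genes listed, 12 passed the filter and 9 were at 0 in the 4 libraries. All 12 had a lower mean at 24 h, 10 with no overlap between the groups (17.9% of all tested genes were lower without overlap), and 0 were called. The median difference of the 12 was -0.27, against 0.01 over all genes, with both 24 h libraries below 0. By unadjusted p, 9 of the 12 were under 0.05. Without 24 h replicate 1, 11 of the 12 were lower. Since the list was written with earlier results known, these counts describe the list and do not test it.

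The chromogranins, acidic proteins that condense granule contents, were closest to the threshold. Chgb was at 87.7 and 87.3 at 0 h and at 61.8 and 65.8 at 24 h (log2 -0.45, SE 0.06, limma adjusted p = 0.0538). Chga was at 137 in each 0 h library and at 102 and 109 at 24 h (log2 -0.38, limma adjusted p = 0.0923). The secretogranins Scg2 and Scg3 were at 14.4 and 13.6 and at 9.31 and 9.73 at 0 h, and at 9.49 and 11.3 and at 7.44 and 6.32 at 24 h (limma adjusted p = 0.138 and 0.103). The 24 h replicates of Scg2 and Scg3 were in opposite order. The nucleobindin Nucb2 was at 1.74 and 1.89 and then at 1.38 and 1.29 (limma adjusted p = 0.102). Without 24 h replicate 2, which had the higher 24 h values, the log2 differences of Chgb, Chga and Scg2 were -0.49, -0.43 and -0.51. The median of the 12 was -0.23 without 24 h replicate 2 and -0.29 without 24 h replicate 1.

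Pomc itself had a log2 difference of -0.26 (SE 0.08, limma adjusted p = 0.247). The other cargo genes with the least difference were Resp18 at -0.13, Scg5 at -0.09 and Pcsk1n, the inhibitor of the convertase Pcsk1, at -0.02. At 72 h Chgb was at a mean of 66.5 and Chga of 108, near their 24 h values, while Pomc was at 670 and Scg5 at 14.7, above the 0 h means.

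CREB acts on granule genes through the cAMP response element TGACGTCA. It was found in Chgb and Scg2, 2 of the 11 cargo genes, of 12, that have a window. Of all windows, 1.79% hold it. The window of Pcsk1 held it too. The windows of Chgb (chr2:132781392-132781691, plus strand) and Scg2 (chr1:79439977-79440276, minus strand) are shown because the element lies at nearly the same distance from the start, from position -72 and -68, and in Pcsk1 from -78. The element is in capitals and reads alike on both strands.
Chgb: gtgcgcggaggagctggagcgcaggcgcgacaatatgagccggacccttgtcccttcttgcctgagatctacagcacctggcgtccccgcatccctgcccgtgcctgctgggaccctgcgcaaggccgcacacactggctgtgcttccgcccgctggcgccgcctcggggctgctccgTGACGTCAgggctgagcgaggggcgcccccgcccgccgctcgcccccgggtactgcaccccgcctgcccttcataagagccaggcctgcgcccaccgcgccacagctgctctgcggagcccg
Scg2: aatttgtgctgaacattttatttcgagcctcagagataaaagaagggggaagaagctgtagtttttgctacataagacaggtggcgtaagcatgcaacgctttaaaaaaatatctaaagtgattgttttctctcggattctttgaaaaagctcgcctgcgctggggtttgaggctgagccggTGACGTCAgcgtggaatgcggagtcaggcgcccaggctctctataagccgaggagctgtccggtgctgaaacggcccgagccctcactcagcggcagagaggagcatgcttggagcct

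The processing enzymes had a median near that of all genes. Of 15, 8 were tested, 2 with higher and 6 with lower means (median -0.03), and 0 were called. Pcsk1, the convertase that cuts Pomc in corticotropes, was at 17.8 and 19.7 at 0 h and at 15.4 and 15.7 at 24 h (log2 -0.25, limma adjusted p = 0.276). Carboxypeptidase E, which trims peptide ends, was coded by Cpe at 76.6 and 72.3 and then at 73.0 and 74.5 (log2 -0.01, limma adjusted p = 0.943), with overlapping groups. Pam, which amidates peptides, was at 7.73 and 7.17 and then at 7.88 and 8.64 (log2 0.13, limma adjusted p = 0.456).

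Among 28 tested genes of granule membranes and exocytosis, of 49 listed, 9 had higher and 19 lower means (median -0.03) and 0 were called. Snap25, part of the SNARE complex that fuses granules with the plasma membrane, was at 12.7 in each 0 h library and at 9.41 and 10.3 at 24 h (log2 -0.33, limma adjusted p = 0.0871). The granule membrane protein gene Ptprn was at 7.06 and 7.05 and then at 4.73 and 5.66 (limma adjusted p = 0.160). The Rab27 effector Sytl4 was at 4.21 and 4.05 and then at 3.20 and 3.41 (limma adjusted p = 0.165), and the calcium sensor Syt7 was at 8.06 and 7.65 and then at 6.29 and 6.74 (limma adjusted p = 0.194). Rab27a, the GTPase that docks granules, had the largest higher value, from 4.36 and 4.16 to 5.70 and 7.20 (log2 0.50, limma adjusted p = 0.129). The groups did not overlap for any of these 5 genes. Without 24 h replicate 2, the log2 differences of Snap25, Unc13a and Ptprn were -0.40, -0.40 and -0.49. The list median was -0.04 without 24 h replicate 2 and -0.003 without 24 h replicate 1.

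Of 45 tested genes of vesicle coats and the early secretory route, 20 had higher and 25 lower means (median -0.02). Copg2 rose and Mia3 fell, as given above, and the other 43 were not called. Copg1, the paralog of Copg2 in the COPI coat, was at 4.78 and 5.12 and then at 4.15 and 4.21 (log2 -0.20, limma adjusted p = 0.274). Mia2, the partner of Mia3, was at 2.25 and 2.31 and then at 2.67 and 2.89 (log2 0.20, limma adjusted p = 0.292). In both pairs the paralogs had opposite signs, without a test of that contrast. The list median was -0.05 without 24 h replicate 1 and 0.01 without 24 h replicate 2.

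**Figure D2:**
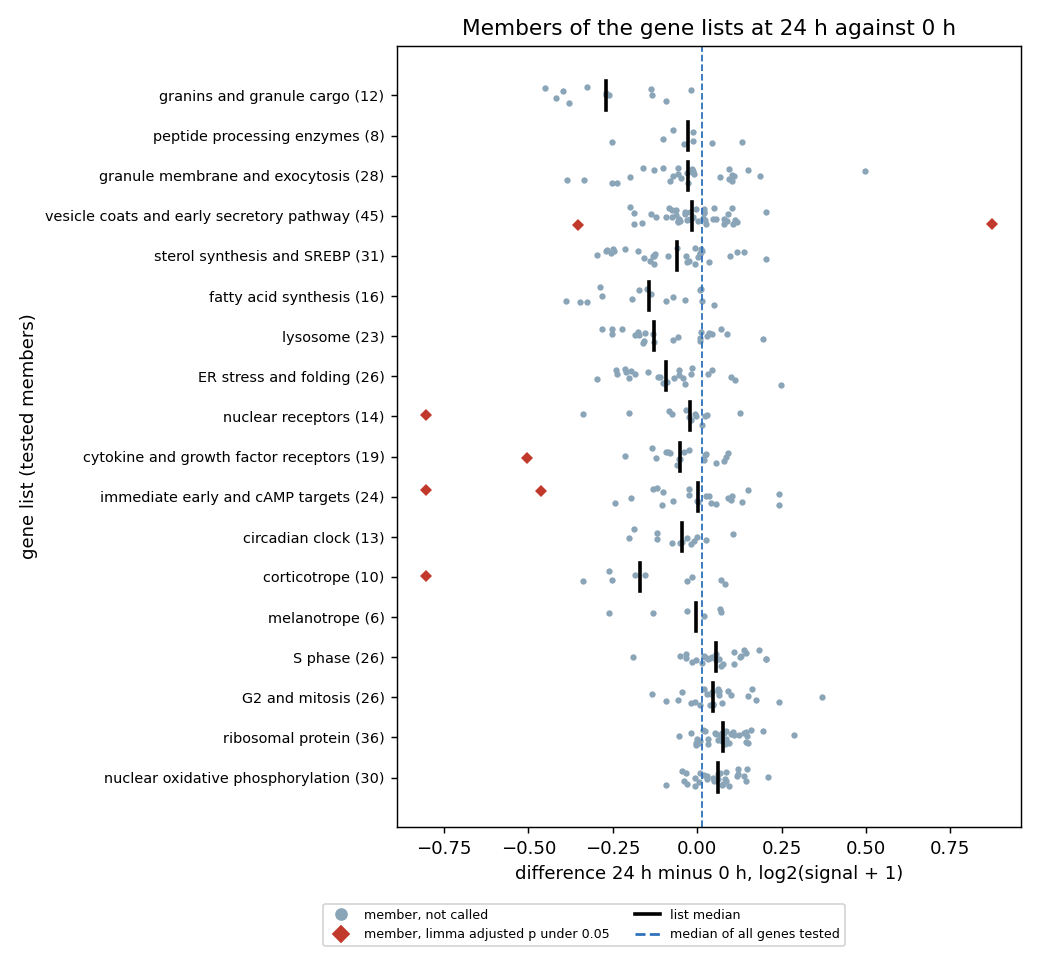
Difference between 24 h and 0 h on the log2(signal + 1) scale (horizontal axis) for the tested members of 18 gene lists (vertical axis, number of tested members in parentheses). Blue points are members that were not called and red diamonds members with a limma adjusted p under 0.05, the black bars are list medians and the dashed line is the median of all genes tested, 0.01. All 12 granule cargo genes lie left of 0, with a median of -0.27, and 0 of them is called.

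Sterol genes were lower at 24 h for the most part, by small amounts and more so in 1 library. Of 43 genes of sterol synthesis and SREBP control, 31 were tested, 21 with lower and 10 with higher means, 13 lower and 2 higher without overlap, and 0 were called (median -0.06). Over all tested genes, 44.5% were lower, 17.9% without overlap, and 24.3% were higher without overlap. The median was -0.12 in 24 h replicate 1 and -0.04 in replicate 2, and 0.04 in each 48 h library.

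In the sterol genes named here the 24 h replicates differed. Hmgcs1, an early synthase of the mevalonate route, was at 3.99 and 4.07 and then at 2.95 and 3.54 (limma adjusted p = 0.253). Fdps, which makes farnesyl pyrophosphate, was at 9.89 and 9.20 and then at 7.05 and 8.12 (limma adjusted p = 0.279). Nsdhl, a sterol dehydrogenase, was at 1.25 and 1.38 and then at 0.816 and 1.07 (limma adjusted p = 0.225). Pmvk, the phosphomevalonate kinase, was at 6.07 and 5.92 and then at 4.37 and 5.43 (limma adjusted p = 0.283), and Insig1, which retains SREBP in the endoplasmic reticulum, was at 10.8 and 10.7 and then at 7.55 and 10.1 (limma adjusted p = 0.373). Npc2, a lysosomal sterol carrier, was at 2.31 and 2.18 and then at 1.81 and 1.93 (limma adjusted p = 0.246). Each was lowest in 24 h replicate 1. Without 24 h replicate 2, so with the lower 24 h library alone, the log2 differences of Pmvk and Insig1 were -0.38 and -0.46.

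Others of the list did not share this direction. Stard4, a sterol carrier, was at 3.96 and 3.82 and then at 3.74 and 4.77 (limma adjusted p = 0.698), on both sides of its 0 h values. Ebp, a sterol isomerase, was higher without overlap, at 2.46 and 2.17 and then at 2.77 and 2.85 (log2 0.20, limma adjusted p = 0.284). By 48 h Fdps was at a mean of 9.01, Nsdhl at 1.20 and Insig1 at 11.2, against 9.54, 1.32 and 10.7 at 0 h.

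The element TCACCCCAC was found in 1 of the 23 sterol genes, of 31, that have a window, against 0.551% of all windows. The window of that gene, Hmgcs1 (chr13:119690101-119690400, plus strand), is shown because it is a textbook SREBP target, with the element in capitals from position -137.
Hmgcs1: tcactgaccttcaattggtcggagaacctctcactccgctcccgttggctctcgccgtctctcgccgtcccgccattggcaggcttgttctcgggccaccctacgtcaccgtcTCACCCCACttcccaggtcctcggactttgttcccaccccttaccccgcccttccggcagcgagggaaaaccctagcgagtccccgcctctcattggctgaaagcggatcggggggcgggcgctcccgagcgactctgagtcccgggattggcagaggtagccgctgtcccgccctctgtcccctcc

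Fatty acid genes had a larger median difference than sterol genes, again with the lower values in 24 h replicate 1. Of 19, 16 were tested, 12 with lower and 4 with higher means, 7 lower and 0 higher without overlap (17.9% and 24.3% of all tested genes), and 0 were called (median -0.14; -0.24 in 24 h replicate 1 and -0.07 in replicate 2). Acsl3, which activates long-chain fatty acids, was at 5.10 and 4.88 and then at 4.04 and 3.81 (log2 -0.28, limma adjusted p = 0.0997), with the 24 h replicates close together. The desaturase Scd2, the most highly expressed of the list, was at 37.9 and 36.8 and then at 25.1 and 33.9 (log2 -0.35, limma adjusted p = 0.321). The desaturases Fads1 and Fads2 were at 11.8 and 11.4 and at 7.54 and 7.63 at 0 h, and at 8.69 and 10.00 and at 4.90 and 6.29 at 24 h (limma adjusted p = 0.175 and 0.208). Scd1, another desaturase, was at 4.13 and 5.21 and then at 3.65 and 3.36 (limma adjusted p = 0.249). Acly, which supplies acetyl-CoA, was at 14.0 and 13.7 and then at 11.4 and 12.6 (limma adjusted p = 0.278), whereas Fasn, the fatty acid synthase, overlapped between the groups. Without 24 h replicate 2, which had the higher 24 h values, the log2 differences of Scd2, Fads1 and Fads2 were -0.56, -0.38 and -0.54. At 72 h Scd2 was at a mean of 39.8 and Scd1 at 5.58, against 37.3 and 4.67 at 0 h.

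Other lists also differed between the 24 h libraries. The glycolysis and hypoxia genes (23 tested) had a median of -0.17 in 24 h replicate 1 and 0.05 in replicate 2, and the clock genes (13 tested) of -0.13 and 0.03. In the opposite direction, 36 ribosomal protein genes had 0.13 and 0.01, 30 nuclear genes of oxidative phosphorylation 0.13 and -0.01, and 10 heat shock genes 0.12 and -0.02. Per1, the clock gene, was at 1.55 in 24 h replicate 1 and 2.54 in replicate 2, on either side of the 0 h values of 2.47 and 2.06. The part that such a difference between libraries has in the sterol and fatty acid values was not tested, but their values without each library are given above. The granule cargo median was -0.23 in 24 h replicate 1 and -0.29 in replicate 2.

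**Figure D3:**
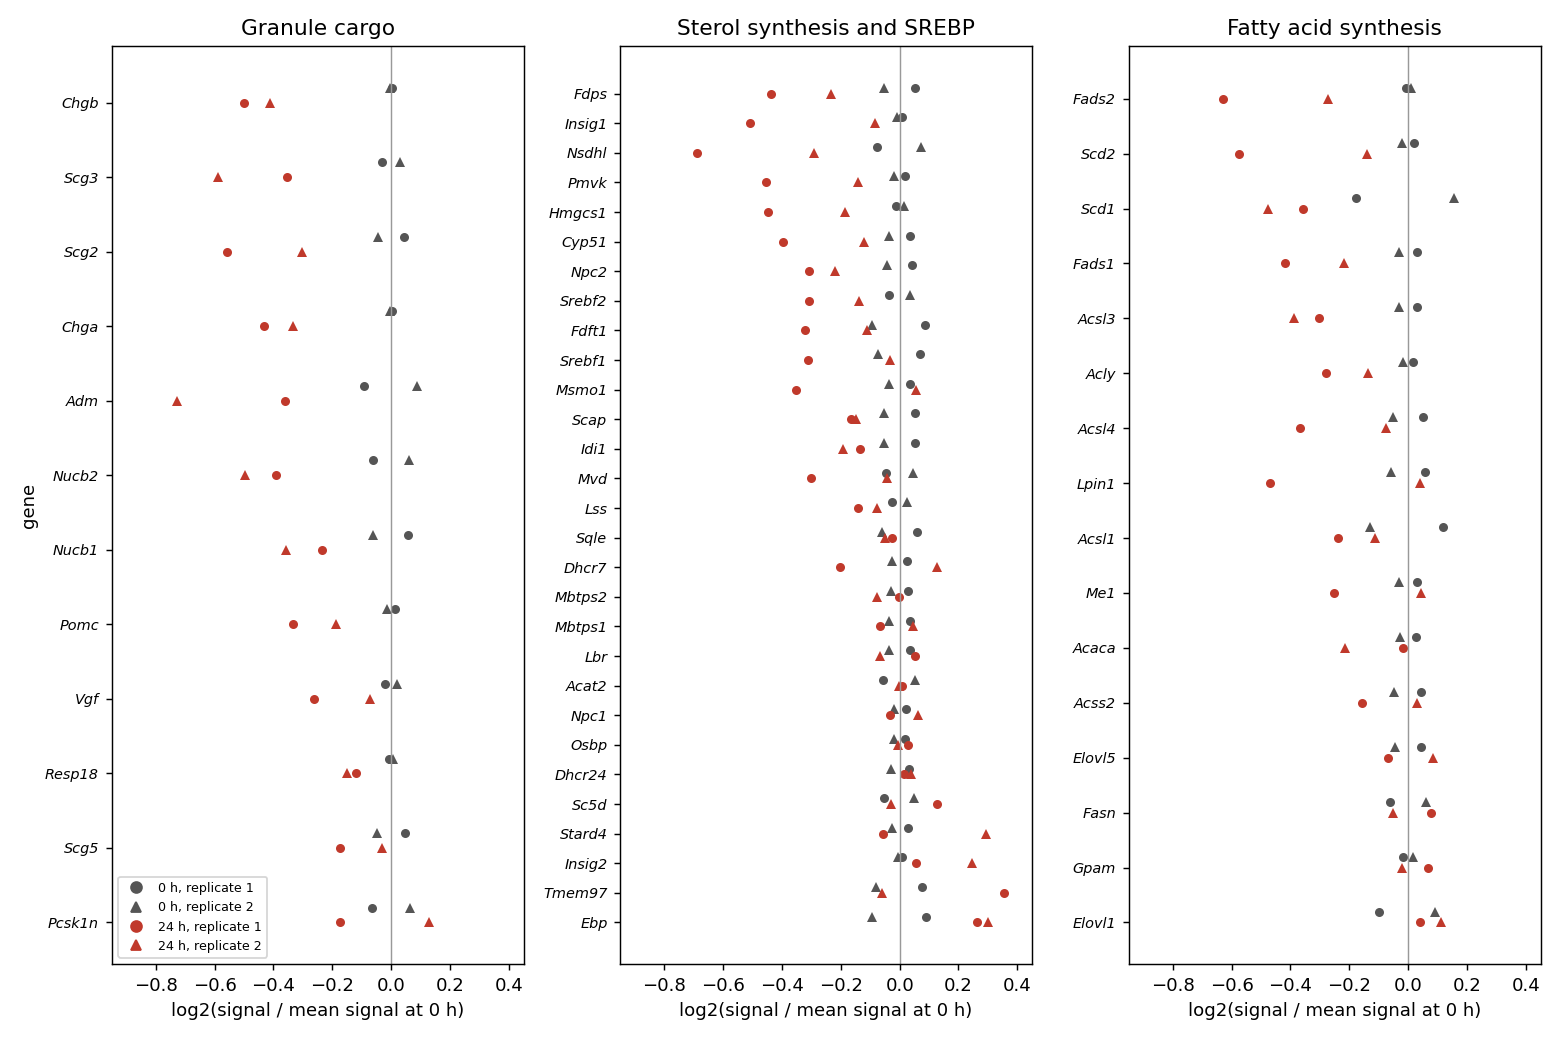
Signal in each 0 h and 24 h library as log2 of the ratio to the 0 h mean (horizontal axes) for the tested genes (vertical axes, sorted by difference) of granule cargo (left, all 12), sterol synthesis and SREBP control (middle, 29 of 31) and fatty acid synthesis (right, all 16). Grey points are 0 h and red points 24 h, circles for replicate 1 and triangles for replicate 2. In the sterol and fatty acid panels the red circles lie further left than the red triangles for many genes, as for Insig1 (7.55 and 10.1) and Scd2 (25.1 and 33.9), and in the cargo panel both lie left of 0 for every gene but Pcsk1n.

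Receptors with lower values were of several kinds. Among 14 tested nuclear receptor genes of 43 listed, Nr4a2 fell and the other 13 were not called (4 higher and 10 lower means in all, median -0.02). Nr3c1, the glucocorticoid receptor through which Pomc is repressed, was at 5.07 and 4.93 and then at 3.43 and 4.09 (log2 -0.34, SE 0.07, limma adjusted p = 0.146), with no overlap. Without 24 h replicate 2, the log2 difference of Nr3c1 was -0.44. Rora, an orphan receptor, was at 1.30 and 1.21 and then at 0.829 and 1.10 (limma adjusted p = 0.303). The relatives of Nr4a2 were weak: Nr4a1 was at 0.575 and 0.372 at 0 h and at 0.333 and 0.364 at 24 h, and Nr4a3 was at 0.148 in each 0 h library and at 0.114 and 0.174.

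Of 62 hormone and neurotransmitter receptor genes, 27 were at 0 in the 4 libraries and 3 were tested. The somatostatin receptors, which inhibit hormone release, had opposite signs. Sstr5 was at 1.71 and 1.66 at 0 h and at 1.02 and 1.18 at 24 h (log2 -0.35, SE 0.05, limma adjusted p = 0.0697), and was at means of 1.01 and 1.09 at 48 and 72 h. Sstr2 was at 2.45 and 2.51 and then at 3.62 and 2.83 (log2 0.27, limma adjusted p = 0.260). The groups did not overlap for either, and without 24 h replicate 2 the log2 difference was -0.41 for Sstr5 and 0.41 for Sstr2. Ramp2, a partner of adrenomedullin receptors, was at 5.89 and 6.38 and then at 6.90 and 6.61 (limma adjusted p = 0.414).

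Among 19 tested cytokine and growth factor receptors of 55 listed, 7 had higher and 12 lower means (median -0.05), and Il13ra1 fell. Insr, the insulin receptor, was at 3.06 and 2.25 and then at 2.30 and 1.97 (limma adjusted p = 0.499), and Fgfr1 at 4.94 and 4.60 and then at 4.16 and 4.45 (limma adjusted p = 0.471). The activin receptor Acvr1 was at 1.03 and 1.16 and then at 0.929 and 0.892 (limma adjusted p = 0.341). Lifr, the receptor through which leukemia inhibitory factor acts on corticotropes, lay below the filter at means of 0.441 and 0.389.

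Lists of genes tied to signalling differed in direction. Of 24 tested immediate early and cAMP targets, 13 had higher and 11 lower means, and Nr4a2 and Creb3l1 fell. Atf3, a stress-induced transcription factor, was at 2.88 and 2.87 and then at 3.70 and 3.46 (log2 0.24, limma adjusted p = 0.131), and Sik1, a kinase that restrains CREB signalling, was at 2.71 and 2.13 and then at 1.88 in each library (limma adjusted p = 0.276). Of 6 tested estrogen response genes, 5 had lower means, 4 of them without overlap (44.5% and 17.9% of all tested genes), and 0 were called. Their median was -0.11, with -0.10 in 24 h replicate 1 and -0.13 in replicate 2. Igfbp4, which binds insulin-like growth factors, was at 3.46 and 3.82 and then at 2.83 and 1.75 (limma adjusted p = 0.226). Without 24 h replicate 1, its log2 difference was -0.75. Of 13 ion channel genes, Pex5l fell and 12 were not called, among them Kcnh6 at 1.75 and 1.72 and then at 1.17 and 1.29 (limma adjusted p = 0.0752).

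Of 10 tested corticotrope genes, 8 had lower and 2 higher means (median -0.17, 6 lower and 1 higher without overlap, against 17.9% and 24.3% of all tested genes), and Nr4a2 fell. Beside Pomc, Pcsk1 and Nr3c1, given above, Etv1, a transcription factor, was at 3.65 and 3.35 and then at 2.77 and 3.16 (limma adjusted p = 0.483). Tbx19 at 16.3 and 19.4 and Neurod1 at 3.93 and 4.52 at 24 h overlapped their 0 h values. Of 15 melanotrope genes, 6 were tested and 0 called, with 3 higher and 3 lower means. Pcsk2 and Oacyl of that list were among the weakly expressed genes.

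Proliferation and housekeeping genes had small differences and 0 calls. Of 26 S phase genes, 20 had higher means (55.5% of all tested genes did), 13 without overlap (24.3% of all), with a median of 0.06, among them Tk1, thymidine kinase, at 5.62 and 5.74 and then at 6.37 and 6.81 (limma adjusted p = 0.228). Of 26 genes of G2 and mitosis, 20 had higher means (median 0.05, and just below 0 without 24 h replicate 1), with Cdc20, an activator of the anaphase complex, at 4.19 and 4.14 and then at 6.08 and 5.31 (limma adjusted p = 0.144). Of 26 genes of folding and stress in the endoplasmic reticulum, 21 had lower means (median -0.09, 12 without overlap, against 44.5% and 17.9% of all tested genes), and the chaperone Hsp90b1 was at 53.7 and 51.6 and then at 44.9 and 44.1 (limma adjusted p = 0.233). Of 23 lysosomal genes, 14 had lower means (median -0.13, 13 without overlap, against the same shares), with the cathepsin gene Ctsb at 2.85 and 2.87 and then at 2.46 and 2.40 (limma adjusted p = 0.225). Of 26 genes for enhancer coactivators and remodellers, 19 had lower means, with Chd9, a chromatin remodeller, at 12.9 and 12.8 and then at 10.5 and 9.17 (limma adjusted p = 0.129). None of 14 DNA methylation and 16 DNA demethylation genes was called, and the lowest unadjusted p among them belonged to Dnmt3a, a methyltransferase, at 1.61 and 1.46 and then at 1.24 and 1.25 (limma adjusted p = 0.233).

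The weakly expressed genes were fitted with a lower floor, log2(signal + 0.1) over 17823 genes with a mean of at least 0.1. Of the 8226 with a mean under 1, limma called 9 (0.109%), 7 higher (0.0851%) and 2 lower (0.0243%). With 1 of the 0 h libraries left out, 0 were called, and without 24 h replicate 1 or 2 the count was 4 or 34. Of the 23 genes called above, 19 were also called with the lower floor, and Ntn4, Tbc1d1, Mia3 and Scrn1 were not. What number of reads such a signal stands for is not known.

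Oacyl (ENSMUSG00000046610.15, chromosome 18), an acyltransferase-like gene and a melanotrope marker, had the largest rise, from 0.0129 and 0.0171 at 0 h to 0.237 and 0.374 at 24 h (log2 1.80, SE 0.17, limma adjusted p = 0.0158). Pcsk2 (ENSMUSG00000027419.9, chromosome 2, 143546156 to 143816285), the convertase of melanotropes, rose from 0.325 and 0.294 to 0.622 and 0.590 (ratio 1.96, log2 0.79, limma adjusted p = 0.0454). Pcsk2 stayed far below the corticotrope convertase Pcsk1, which was at 15.4 and 15.7 at 24 h. Oacyl and Pcsk2 went on to higher means at 72 h, 0.627 for Oacyl and 0.833 for Pcsk2. The call of Pcsk2 was lost in each of the 8 fits with a library left out, and that of Oacyl was kept in 2.

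Tfeb, the transcription factor of lysosome formation, rose from 0.437 and 0.476 to 1.36 and 1.17 (ratio 2.76, log2 1.29, limma adjusted p = 0.00937) and kept its call in 6 of the 8 fits, losing it without either 0 h library. It was near its 72 h mean of 1.41 by 24 h. Sytl2, an effector of Rab27 in granule docking, rose from 0.235 and 0.288 to 0.690 and 0.547 (log2 0.99, limma adjusted p = 0.0454). Cilp, a matrix protein of cartilage, rose from 0.0458 and 0.0622 to 0.230 and 0.264 (log2 1.17, limma adjusted p = 0.0409).

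Of the receptors, Kit, the tyrosine kinase receptor for stem cell factor, rose from 0.202 and 0.210 to 0.476 and 0.515 (log2 0.96, limma adjusted p = 0.0379). Gprc5b, an orphan G protein-coupled receptor, rose from 0.332 and 0.302 to 0.665 and 0.692 (log2 0.90, limma adjusted p = 0.0293). The genes that fell were Cyp2s1, a cytochrome P450, from 0.961 and 0.919 to 0.488 and 0.501 (log2 -0.81, limma adjusted p = 0.0416), and 4930419G24Rik in the Pex5l locus (log2 -0.83, limma adjusted p = 0.0379). All 9 genes had values that did not overlap between the groups, which the choice by call makes likely. With a library left out, the calls of Cilp, Kit, Gprc5b and Cyp2s1 were lost in each of the 8 fits, and those of Sytl2 and 4930419G24Rik were kept in 1. On the strand opposite Pcsk2, Pcsk2os2 was at 0.180 and 0.112 and then at 0.397 and 0.314, and opposite Gprc5b, Iqck was at 0.217 and 0.205 and then at 0.380 and 0.368, neither called.

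**Figure D4:**
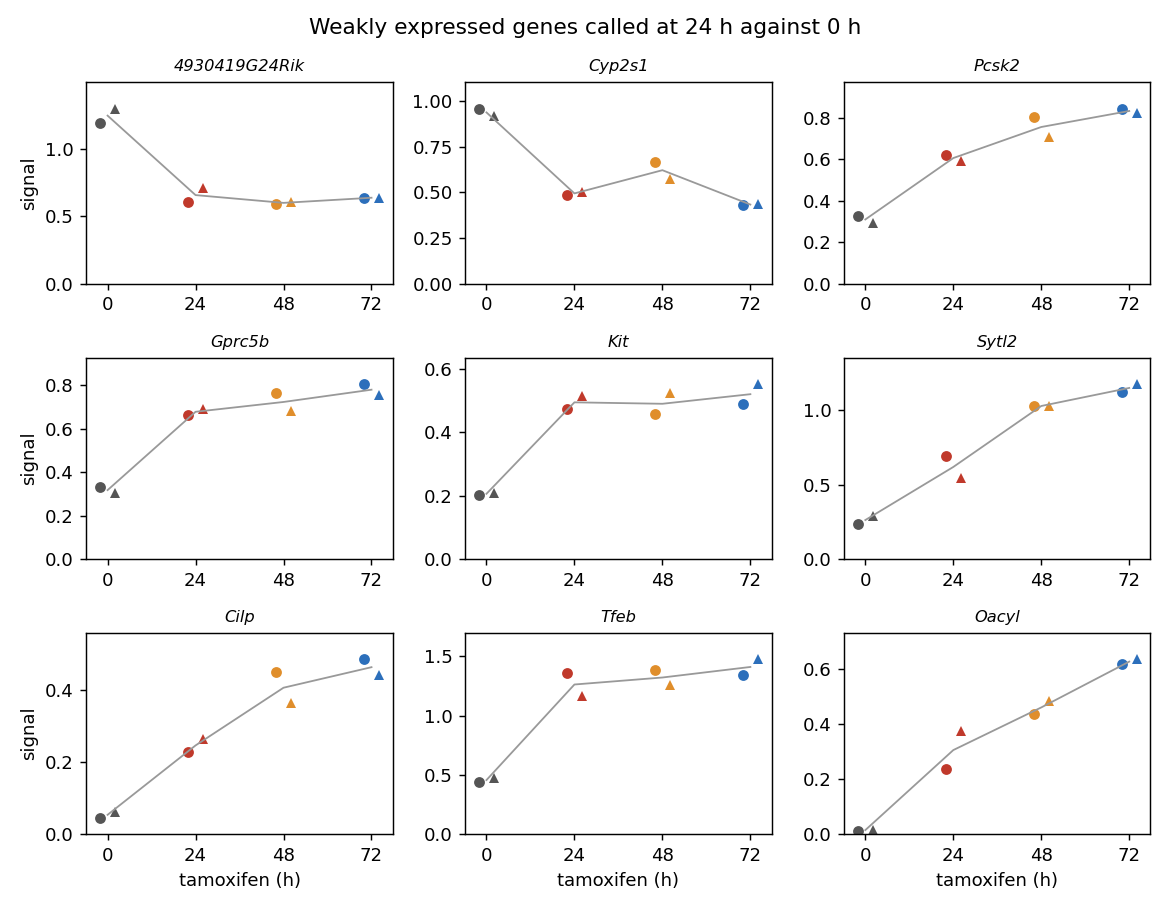
Signal (vertical axes, from 0, with a scale of its own in each panel) of the 9 weakly expressed genes called at 24 h, over 0, 24, 48 and 72 h of tamoxifen (horizontal axes). Circles are replicate 1 and triangles replicate 2, drawn slightly apart, and grey lines join the means. Tfeb and Kit are near their 72 h level at 24 h, while Oacyl, Cilp and Sytl2 have higher means at each later time.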

How the data were processed

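RNA was measured in 8 libraries, 2 at each of 0, 24, 48 and 72 h. Per the labels' protocols, RNA was column-purified and ribosomal RNA depleted, although the molecule field reads genomic DNA. The authors deposited 1 signal value per gene and library, read from the values and columns as mean coverage over merged exons. Its scaling, the read depth and the use of strand were not given in the sources used here. The submitters' processing notes name HISAT2 2.2, SAMtools 1.12, deepTools 3.5 and mm10 (GRCm38).

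Differences were fitted on log2(signal + 1) with limma 3.58.1 (R 4.3.3, intensity trend, group as the only term) over all 8 libraries, with 4 residual degrees of freedom and Benjamini-Hochberg adjustment over all genes tested. Weakly expressed genes were fitted on log2(signal + 0.1). Data were simulated for this comparison (9597 genes). Changed genes were recovered for 25 of 50 at 1.25-fold, 42 of 50 at 1.5-fold, 50 of 50 at 2-fold and 50 of 50 at 3-fold, with 11 false calls. These folds are of signal + 1, so for genes of low signal they stand for larger changes of the signal itself. Shifts of many genes together in a library, such as those described above, were not simulated. Recovery in the real libraries may therefore be lower. More genes were changed in the simulation than the 23 called here, which loosens the threshold that the adjustment sets. Its 11 false calls are to be read beside its own calls, not beside the 23. Alternatives changed the pseudocount, filter, scaling (a trimmed mean of log ratios, 30% from each side, or quantiles), block, trend and libraries. Promoters are RefSeq windows.

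The members and the 38 gene lists were chosen with earlier results of these data known, so lists are described by counts and medians. Every called gene but 1 is named, with neighbours that overlap it; a few genes are not reported here. Of the secretory, sterol, receptor, signalling and pituitary lists, up to 6 members with the smallest p are named too, and of other lists up to 3 where none was called. Other members named (Cpe, Pomc, Resp18, Scg5, Pcsk1n, Unc13a, Insig1, Ebp, Stard4, Fasn, Per1, Lifr, Nr4a1, Nr4a3, Tbx19, Neurod1, Crhr1, Avpr1b, Drd2 and Kcnh6) were chosen after their values were seen.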

Additional observations from a re-analysis of the deposited data

How the results depend on the processing

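The 23 calls at 24 h became 4 with no filter (3169 unadjusted) and 1 with the 4 libraries alone (862 unadjusted). It was 32 with a pseudocount of 0.1, 29 with the lower floor, 30 after quantile normalization, 24 after trimmed mean rescaling, 26 without the trend and 22 with the filter over all 8 libraries. Leaving out 1 library gave 2 to 113. For the 9 weakly expressed genes, whose alternatives were chosen after seeing the data, the count was 4 with a pseudocount of 1 or 0.5, 0 with the 4 libraries alone (651 unadjusted), 10 after trimmed mean rescaling and 0 to 34 with 1 library left out. Where a left-out library leaves a group with 1 sample, that sample is assumed to vary like the other groups. With the replicate number as a block, 19 genes (8 higher and 11 lower) and 2 weakly expressed genes were called. Mia3, Tbc1d1, Scrn1 and Pglyrp1 were among the calls lost under the block. Deviations of same-numbered libraries correlated at r = 0.18 (0 h with 24 h), 0.34 (0 h with 48 h), 0.40 (24 h with 48 h), 0.10 (24 h with 72 h), 0.07 (48 h with 72 h) and -0.02 (0 h with 72 h). The labels give no shared culture or day and there are only 2 numbers, so the numbers were not taken as pairs. No difference of the 23 called genes or the 9 weakly expressed ones changed sign, which most of the settings could not have brought about. Other named genes were not all followed through the settings, and where their 24 h replicates lie on both sides of the 0 h mean (Stard4, Per1 and Tbx19 for example) the sign depends on the replicate. For the 23 genes, 229 of the planned values stayed on their side of the threshold and 160 lost the call. Both scalings moved the median of all genes by under 0.1. Of the list medians, that of granule cargo ran from -0.29 to -0.23 with 1 library left out and was -0.34 with a pseudocount of 0.1. That of vesicle coats ran from -0.05 to 0.03 and that of nuclear receptors from -0.08 to 0.01, so neither has a direction. The unknown read depth limits what can be said of the weakly expressed genes.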

Other observations

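Below the threshold, 44 genes had a limma adjusted p from 0.05 to 0.1, 18 higher and 26 lower. They were chosen after their values were seen and are given as values. Several code for secreted proteins: Ahsg (fetuin A) was at 14.0 and 14.3 at 0 h and at 26.2 and 20.4 at 24 h, its neighbour Fetub (fetuin B) at 7.28 and 7.03 and then at 9.92 and 9.47, and Enho, the precursor of adropin, at 8.98 and 8.90 and then at 12.4 and 11.7 (limma adjusted p = 0.0762, 0.0551 and 0.0514). Mfge8, which bridges apoptotic cells to phagocytes, was at 2.69 and 2.74 and then at 3.65 and 3.96 (limma adjusted p = 0.0752). Cacna2d1, a calcium channel subunit, was at 12.9 and 12.4 and then at 9.47 and 9.59 (limma adjusted p = 0.0752). Klf5, a transcription factor, was at 4.59 and 4.54 and then at 3.08 and 3.38, and Irs4, an adaptor of insulin signalling, at 24.8 and 23.5 and then at 18.7 and 18.5 (limma adjusted p = 0.0871 for each). Rgs4, a regulator of G protein signalling, was at 0.920 and 0.853 and then at 1.55 and 1.45 (limma adjusted p = 0.0640), and was called with the lower floor. The groups of these 8 genes did not overlap, which the choice by a small p makes likely.

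The imprinted genes Plagl1 and Mcts2 were not called and had differing replicates. Plagl1, a zinc finger factor, was at 7.78 and 7.69 at 0 h and at 4.49 and 6.08 at 24 h (limma adjusted p = 0.175), and Mcts2 was at 1.52 and 1.44 and then at 2.33 and 1.82 (limma adjusted p = 0.194). Of 16 imprinted genes tested, 11 had higher and 5 lower means, 8 and 3 of them without overlap (24.3% and 17.9% of all tested genes). Mest and Copg2 of this list were called higher and Ddc lower, as given above.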
